A study of Mus musculus with 4 samples.

Results

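The regulatory landscape of Grem1 on mouse chromosome 2 was described as the accessible regions between 113.3 and 114 Mb (mm10), a window of 700 kb that holds Fmn1 and Grem1. Every row of the deposited ATAC-seq peak lists that overlaps this window was taken, whatever its values, and each is called a region here. This gave 37 of the 99427 regions of the E10.5 list and 23 of the 37548 regions of the E11.5 list. The samples were limb cells of wild-type mouse embryos, fore- and hindlimb together, with 2 replicates at E10.5 (E for embryonic day; the protocol writes E10) and 2 at E11.5. Both groups were untreated. The strain, the number of embryos and the sequencing depth are not given in the sources used here, and a list pools the replicates of a stage. No spread between replicates can be given, so the stages are set side by side without a test, and a longer list may come from more reads.

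Grem1 encodes gremlin 1, a secreted antagonist that binds BMP ligands. In the limb bud it is expressed in posterior and distal mesenchyme, where it links the Sonic hedgehog signal of the posterior margin to the FGF ligands of the apical ectodermal ridge: SHH maintains Grem1, GREM1 lowers BMP activity, and the ridge then keeps its Fgf genes active, which in turn sustain Shh. Fmn1 encodes formin 1, an actin-nucleating protein. Its gene body holds limb enhancers of Grem1, and the limb deformity mutations mapped to Fmn1 act through the regulation of Grem1. The genes are transcribed towards each other: Fmn1 lies on the plus strand at chr2:113327664-113716768 and Grem1 on the minus strand at chr2:113748675-113758648. Scg5 (the neuroendocrine chaperone secretogranin V, chr2:113776313-113829091) and Arhgap11a (a GTPase-activating protein, chr2:113831492-113848661) lie beyond Grem1, both on the minus strand.

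The start sites of these genes carry the sequence below, taken from RefSeq promoters of GRCm38.p6, the assembly with mm10 coordinates. Of the 10 genes of the window, 7 matched an entry, with 8 start sites. The start sites shown are those of the 3 strongest promoter regions of the window (Grem1, Fmn1, Arhgap11a) and the downstream start site of Fmn1, where neither list has a region within 1 kb. Each line gives the 250 bases before the start site on the gene's strand, 5′ to 3′, and capitals mark a GC box (GGGCGG) or a CCAAT box (CCAAT) on either strand.
Grem1, chr2:113758649-113758898, minus strand: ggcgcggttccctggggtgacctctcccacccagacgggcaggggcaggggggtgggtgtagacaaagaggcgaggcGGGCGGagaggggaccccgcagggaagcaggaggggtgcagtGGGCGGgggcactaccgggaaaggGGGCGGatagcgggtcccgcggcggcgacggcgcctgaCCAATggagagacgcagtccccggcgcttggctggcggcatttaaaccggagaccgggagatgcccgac
Fmn1, chr2:113327486-113327735, plus strand: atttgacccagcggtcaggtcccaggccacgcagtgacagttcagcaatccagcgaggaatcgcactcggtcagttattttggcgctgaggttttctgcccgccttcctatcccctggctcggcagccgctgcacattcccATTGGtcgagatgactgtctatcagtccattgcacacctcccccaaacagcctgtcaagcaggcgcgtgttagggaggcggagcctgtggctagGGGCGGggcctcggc
Fmn1 downstream start, chr2:113684840-113685089, plus strand: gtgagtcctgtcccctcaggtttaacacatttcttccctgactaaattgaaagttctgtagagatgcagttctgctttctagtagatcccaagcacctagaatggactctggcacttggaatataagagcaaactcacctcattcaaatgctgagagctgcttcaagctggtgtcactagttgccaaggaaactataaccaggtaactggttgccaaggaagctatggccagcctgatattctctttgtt
Arhgap11a, chr2:113848662-113848911, minus strand: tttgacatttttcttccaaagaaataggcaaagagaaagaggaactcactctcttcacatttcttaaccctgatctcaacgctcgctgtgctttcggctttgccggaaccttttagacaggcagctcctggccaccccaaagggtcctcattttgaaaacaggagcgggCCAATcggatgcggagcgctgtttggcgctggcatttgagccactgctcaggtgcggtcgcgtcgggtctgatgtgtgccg
The Grem1 stretch held 3 GC boxes and 1 CCAAT box, with 24 CpG dinucleotides and a GC content of 72.0%. The Fmn1 stretch held 1 of each motif, 15 CpG and 60.8% GC. The Arhgap11a stretch held 1 CCAAT box, 14 CpG and 52.8% GC, and the downstream Fmn1 start held neither motif, 0 CpG and 44.4% GC. Over the 32851 promoters of the table the median was 6 CpG and 52.4% GC, 32.7% held a GC box and 33.8% a CCAAT box. Motifs linked to the limb signals were also searched on both strands, as was TATAAA (the TATA box, 12.4% of all promoters). The limb motifs were GACCACCCA (GLI factors, 0.225%), CAATAAA (posterior HOX factors, 4.20%), CATCTG (an E-box read by HAND2, 14.4%) and GTCTAGAC (SMAD factors, 0.167%). None of these letters occurred in the 4 stretches shown. Of the stretches not shown, that of Gm13963 held TATAAA, and that of 4930533B01Rik held TATAAA and CATCTG.

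Both genes had an accessible promoter at each stage, and the Grem1 promoter had the highest signal value of the window at E10.5. A promoter region is one within 1 kb of a protein-coding start site, and all others are called distal. Of 21536 protein-coding genes 68.5% had such a region in the E10.5 list and 62.6% in the E11.5 list, so presence alone does not set the pair apart. The value given per region is the authors' signal value, a total over the region that grows with its width, and ranks are within a list. At Grem1 the E10.5 region spanned chr2:113756935-113759364, a width of 2430 bp, with a signal of 8612 and rank 3012 of 99427 (the top 3.03%). The E11.5 region spanned chr2:113757058-113759305 and lay wholly inside it, with a width of 2248 bp, a signal of 4790 and rank 3144 of 37548 (the top 8.37%). Its highest point was 0.024 kb before the start site at E11.5 and 1.02 kb into the gene at E10.5, so the summits stood 1041 bp apart within a region of nearly the same extent. Ranked by −log10 p, the Grem1 region stood in the top 12.9% at E10.5 and the top 28.3% at E11.5. By signal per bp it stood in the top 7.35% and 27.4%. At E10.5 the Arhgap11a promoter had the highest −log10 p of the window, and a distal region in Fmn1 the highest signal per bp.

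The Fmn1 promoter region differed less between the lists in width and in signal. At E10.5 it spanned chr2:113327019-113328182 (1164 bp), with a signal of 4417 and rank 11723 (the top 11.8%). At E11.5 it spanned chr2:113326986-113328212 (1227 bp), with a signal of 3952 and rank 4707 (the top 12.5%). The summits were 5 bp apart. The promoters of the neighbours were listed at both stages too. Arhgap11a had signals of 6001 (chr2:113847692-113849656) and 5575 (chr2:113847569-113849647), in the order E10.5 and E11.5, and Scg5 had 1661 (chr2:113828684-113829277) and 1408 (chr2:113828679-113829270). For these neighbours the summits of both lists fell on the same base, 0 bp apart. In the E10.5 list 4 of 37 window regions were promoter regions (10.8%, against 15.5% over the whole list), and in the E11.5 list 4 of 23 (17.4%, against 36.8%).

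**Figure D1:**
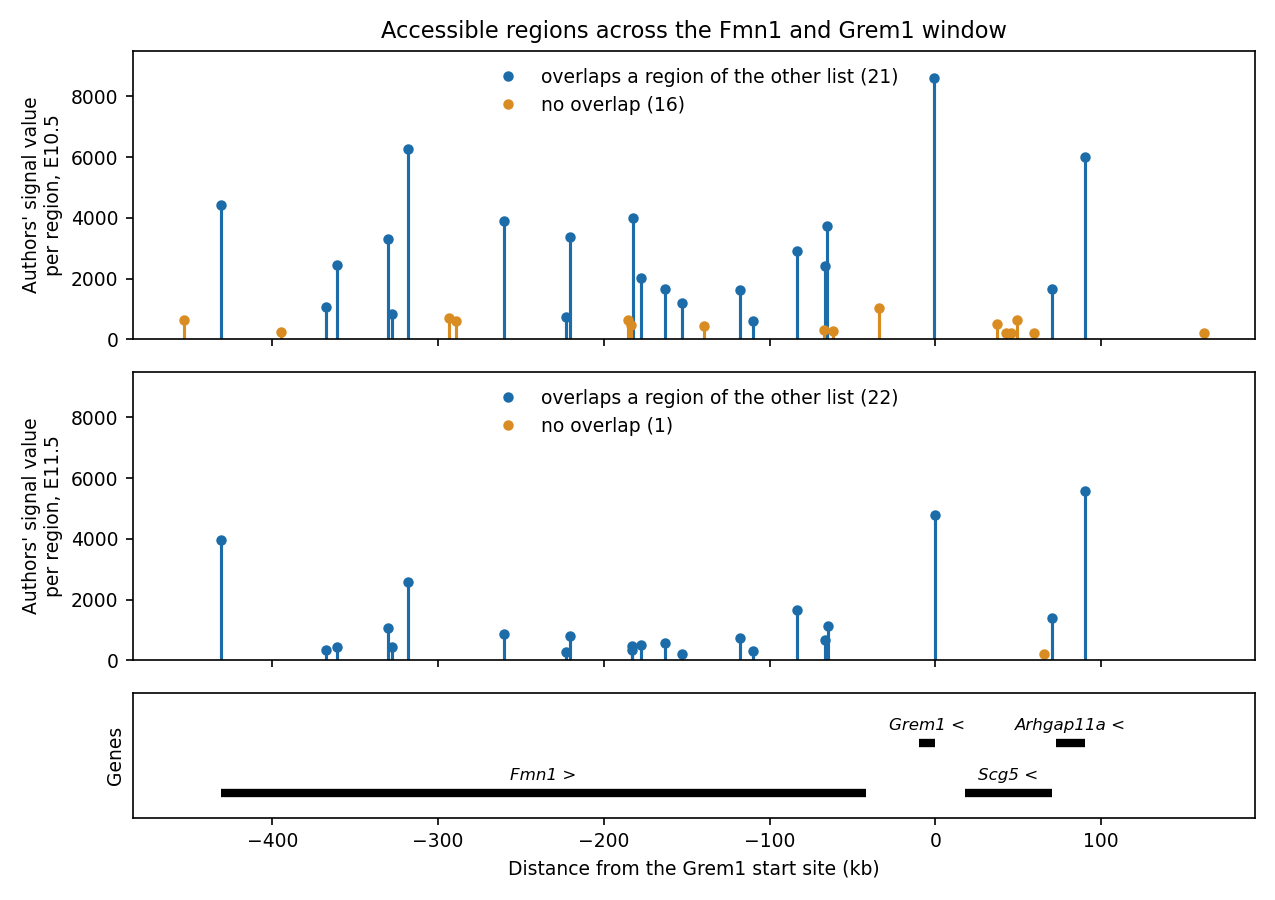
Signal value of each accessible region (vertical axis, authors' signal value, linear) against the distance of its summit from the Grem1 start site in kb, for the E10.5 list (top) and the E11.5 list (middle), with protein-coding genes below and > or < for plus or minus strand. Regions that overlap a region of the other list (blue, 21 and 22) lie at promoters or in Fmn1, and regions without overlap (orange, 16 and 1) have signals of at most 1026.

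Most regions of the window lay in Fmn1, a gene that spans 389 kb of the 700 kb. A gene of this length would also hold most regions of an even spread. Of the 37 regions at E10.5, 26 overlapped the Fmn1 gene, 1 lay before it, 1 lay between Fmn1 and Grem1, 1 covered the Grem1 start site and 8 lay beyond Grem1. The 23 regions at E11.5 comprised 19 in Fmn1, the Grem1 promoter region and 3 beyond Grem1. Without its promoter region, Fmn1 held 25 regions in the first list and 18 in the second. Exons and introns of mm10 were not used here, so these regions are placed in the gene only. Regions in the last part of Fmn1 can also lie in 4930533B01Rik, a long noncoding RNA gene on the opposite strand at chr2:113691053-113708550.

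The distal regions of Fmn1, those over 1 kb from a protein-coding start site, were stronger at E10.5 than distal regions of the list in general. Their median signal was 1212, with a range from 247 to 6276, against 693 over 83934 distal regions. Their median width was 613 bp against 563 bp. At E11.5 the median signal in Fmn1 was 534, with a range from 223 to 2592, against 446 over 23655 distal regions, and the median width was 586 bp against 413 bp. Signal per bp at E11.5 did not share this direction, with a median of 1.15 in Fmn1 and 1.24 over the list, while at E10.5 the medians were 1.87 and 1.36.

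The distal region with the highest signal at both stages lay 318 kb from the Grem1 start site. At E10.5 it spanned chr2:113440184-113441715, with a signal of 6276 and rank 6514 (the top 6.55%), second in the window to the Grem1 promoter. At E11.5 it spanned chr2:113440278-113441376, with a signal of 2592 and rank 8275 (the top 22.0%). It had a smaller neighbour at 330 kb, chr2:113427635-113428829, with a signal of 3317 (rank 16615), which shrank in the E11.5 list to chr2:113428106-113428797 with a signal of 1060 (rank 15341). By −log10 p this neighbour was the higher of both regions, with 10.95 against 10.42 at E10.5 and 6.60 against 6.45 at E11.5. Between them lay a narrow region of 448 bp at chr2:113430758-113431205 with a signal of 837 (rank 49756), listed at E11.5 as 265 bp at chr2:113430934-113431198 with 455 (rank 24104). All 3 regions of this group, in the upstream part of Fmn1, were thus in both lists.

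Nearer the Fmn1 start, the regions at 367 and 361 kb from Grem1 were listed at both stages. The first, chr2:113390852-113391436, lies 326 bp from the start site of the long noncoding RNA gene Gm13963, is counted as distal, and had a signal of 1077 (rank 42256). Its E11.5 counterpart, chr2:113391038-113391249, had a signal of 354 (rank 27747). The second, chr2:113397380-113398453, had a signal of 2450 (rank 22246) and its counterpart, chr2:113397410-113398123, one of 430 (rank 24922), the lowest signal per bp of the E11.5 window.

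In the middle of Fmn1, 4 regions with E10.5 signals of at least 2009 stood 260 to 178 kb from Grem1. The region at chr2:113497481-113499006 had a signal of 3895 (rank 13833) and its E11.5 counterpart at chr2:113497524-113498696 one of 876 (rank 16997). At 221 kb, chr2:113537674-113539446 was the widest distal region of the window at 1773 bp, with a signal of 3387 (rank 16234). Its counterpart, chr2:113537835-113538662, measured 828 bp with a signal of 804 (rank 17753). Beside it, chr2:113535415-113535976 had 732 (rank 54004) and its counterpart chr2:113535736-113535961 had 277 (rank 31705).

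The region at 183 kb was the only E10.5 region of the window that met 2 regions at E11.5. It spanned chr2:113575270-113576611 with a signal of 4012 (rank 13359). The E11.5 list had chr2:113575335-113575659 with 351 (rank 27876) and chr2:113575827-113576245 with 463 (rank 23880) in its place, both inside it and with summits 633 and 152 bp from its own. At 178 kb, chr2:113580804-113582253 had a signal of 2009 (rank 26442), and the counterpart chr2:113581061-113581669 had 502 (rank 22868).

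Between 163 and 110 kb from Grem1, 4 weaker regions were shared. The E10.5 signals were 1658 at chr2:113595401-113596012 (rank 30907), 1212 at chr2:113605095-113606058 (rank 38955), 1626 at chr2:113640661-113641261 (rank 31354) and 624 at chr2:113648271-113648477 (rank 59145). The E11.5 signals were 566 at chr2:113595412-113596002 (rank 21406), 223 at chr2:113605687-113606049 (rank 35449), 726 at chr2:113640814-113641254 (rank 18726) and 311 at chr2:113648280-113648470 (rank 29725). The last of them is the narrowest shared region at each stage, with 207 and 191 bp, and its summits were 1 bp apart.

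The shared regions in the last part of Fmn1 formed a group 84 to 65 kb from the Grem1 start site. The first, chr2:113674481-113675342, had a signal of 2927 (rank 18775) and its counterpart, chr2:113674525-113675347, one of 1670 (rank 11780). This region was second by signal among the distal regions at E11.5. It was the only distal region whose signal relative to the Grem1 promoter was not lower in the E11.5 list (34.0% and 34.9%). Next came chr2:113691725-113692337, with 2407 (rank 22603) at E10.5 and 662 (rank 19687) at chr2:113691727-113692307. The last was chr2:113692720-113694019, with 3733 (rank 14535) and, at chr2:113692878-113693864, 1142 (rank 14724). From there to the Grem1 promoter region the E11.5 list had no region.

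Regions of the window recurred between the lists more often than regions of the E10.5 list did in general. A counterpart was counted when regions shared 1 bp or more. At E10.5 21 of the 37 window regions had a counterpart, a share of 56.8% (95% Wilson interval 40.9 to 71.3%, counting error only), against 32.3% over the whole list. At E11.5 22 of the 23 had one, a share of 95.7% (79.0 to 99.2%), against 91.8% over the whole list. Among distal regions of Fmn1, 17 of 25 at E10.5 had a counterpart, a share of 68.0% (48.4 to 82.8%), against 22.6% of all distal regions. In the other direction 18 of 18 E11.5 distal regions of Fmn1 had a counterpart, against 87.7% of distal regions of that list. Neighbouring regions are not independent, and no test was made of these shares.

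Since overlap follows signal across the list, the window was also read against regions of like signal. Over the E10.5 list 66.4% of regions in the 4 highest of 10 signal classes had an E11.5 counterpart, as did 17 of 17 in the window. In the 6 lower classes the list gave 9.53% and the window 4 of 20. This cut was not planned, and it falls where every window region above it has a counterpart. Just below it, class 6 had 1 of 2 in the window (20.2% over the list) and class 5 had 3 of 7 (13.5%). Averaged over the 37 regions, the share of the list's regions in the same class was 36.6%. For the distal regions of Fmn1, set against distal regions only, it was 34.5%.

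**Figure D2:**
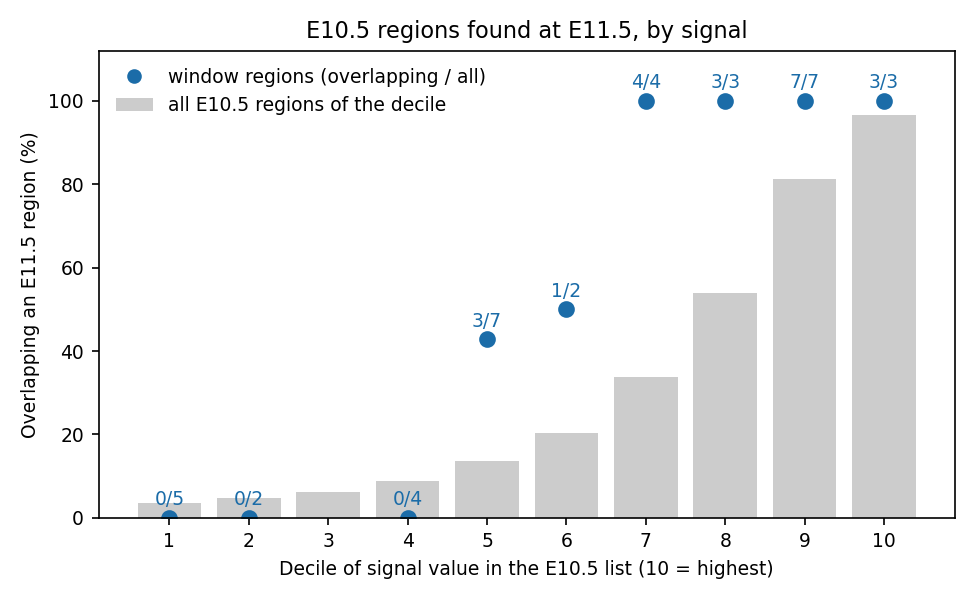
Share of E10.5 regions that overlap an E11.5 region (vertical axis, %) in 10 equal classes of E10.5 signal value (horizontal axis, 10 highest), for all regions of the list (grey bars) and for the window (blue points, with overlapping and total numbers). The window stands at 17 of 17 in classes 7 to 10 and at 4 of 20 in classes 1 to 6, an unplanned cut above which every window region overlaps.

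This difference from the list was not seen at a stricter threshold. With only regions of −log10 p of at least 5 in both lists, 26 E10.5 regions and 8 E11.5 regions remained in the window. The overlap was then 8 of 26, or 30.8%, against 32.4% over the list. The 8 were the promoter regions of Grem1, Fmn1, Scg5 and Arhgap11a and the distal regions at 330, 318, 84 and 65 kb. The number of E11.5 regions per 100 E10.5 regions behaved alike, with 62.2 in the window and 37.7 over the list, and 30.8 and 35.4 at the stricter threshold.

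The number of regions in the window was above the median for stretches of chromosome 2. Over 260 consecutive stretches of 700 kb the median was 26 regions in the E10.5 list and 11 in the E11.5 list, beside 37 and 23 here. The spread of these stretches was not taken, so how unusual the window is cannot be said. Its regions covered 4.24% and 2.41% of the window. Regions were not spread evenly: after the Arhgap11a promoter the E11.5 list had none in the last 150 kb of the window, and the E10.5 list had a single one of 157 bp in the pseudogene Gm21596, with a signal of 217. The long noncoding RNA gene Gm39909, in this stretch, had no region at either stage.

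The counterparts at E11.5 were mostly narrower intervals at the same place. The 21 E10.5 and 22 E11.5 shared regions formed 22 pairs, and in 18 of them the E11.5 region lay wholly inside the E10.5 region. The E10.5 region was the wider in 20 pairs, the exceptions being the promoters of Fmn1 and Arhgap11a. Summits were 0 to 1041 bp apart, with a median of 21.5 bp, and within 100 bp in 17 pairs. The 5 pairs beyond this were at the Grem1 promoter, at 183 kb with both of its counterparts, at 153 kb and at 66.6 kb. These counts were not taken over all pairs of the lists, so they are not a result about this locus.

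Set against the Grem1 promoter region of the same list, most distal regions had lower percentages at E11.5 and the other promoters higher ones. The signal itself was lower at E11.5 in all 22 pairs. The Grem1 promoter region, the reference here, had 8612 and 4790, a larger difference than at the other promoters. The Fmn1 promoter had 51.3% of the Grem1 promoter signal at E10.5 and 82.5% at E11.5, Arhgap11a had 69.7% and 116%, and Scg5 19.3% and 29.4%. The distal region at 318 kb had 72.9% and 54.1%, and the one at 183 kb had 46.6% at E10.5 and 7.33% and 9.66% for its E11.5 counterparts. Of the 18 distal pairs, 17 had the lower percentage at E11.5. The median of shared distal regions was 28.0% at E10.5, with a range from 7.25 to 72.9%, and 11.1% at E11.5, with a range from 4.66 to 54.1%. The same direction held over the whole lists: the median signal of shared distal regions was 44.6% of that of shared promoter regions in the E10.5 list and 16.8% in the E11.5 list, beside 46.2% and 12.2% in the window. The change between lists is therefore near the background and is not a result about this locus. In bulk limb tissue, fewer cells with an open region, less opening per cell and a difference in sequencing depth between the lists cannot be told apart.

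**Figure D3:**
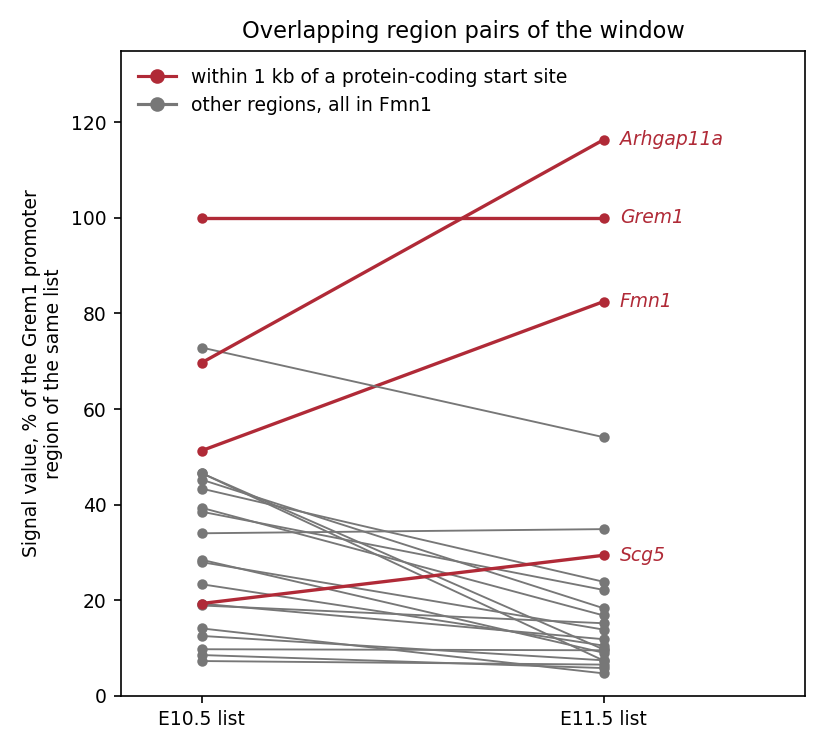
Signal value of each overlapping region as a percentage of the Grem1 promoter region of the same list (vertical axis), with lines joining the 22 pairs of E10.5 and E11.5 regions. Promoters of Fmn1, Scg5 and Arhgap11a (red) have higher percentages at E11.5, and 17 of 18 distal pairs in Fmn1 (grey) have lower ones.

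The regions without a counterpart were weaker and narrower than the shared ones, and lay both among the shared regions of Fmn1 and outside the gene. The 16 at E10.5 had a median signal of 463, a range from 202 to 1026 and a median width of 414 bp, against 2450 and 1074 bp for the 21 shared regions. Of the distal regions outside Fmn1, 0 of 8 at E10.5 had a counterpart, which allows a share of up to 37.5%. Their median signal was 370, and 8.08% of distal regions in the same signal classes overlapped across the list.

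The strongest of them was the only region between Fmn1 and Grem1, 34.2 kb from the Grem1 start site at chr2:113724145-113724794, with a signal of 1026 (rank 43654, class 6). Over the list 20.2% of class 6 had a counterpart. In Fmn1, regions without counterpart were at chr2:113465282-113465680 (signal 711, rank 54954) and chr2:113469288-113469741 (606, rank 60108), both in the stretch between the groups at 318 and 260 kb. At chr2:113573211-113573586 (656, rank 57536) and chr2:113574582-113575131 (466, rank 69006) they flanked the region at 183 kb on its Fmn1 start side. Further along lay chr2:113618639-113619321 (460, rank 69484) and chr2:113691093-113691620 (306, rank 83744), the latter next to the group at the end of Fmn1.

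Before Fmn1 there was chr2:113305266-113305644, with a signal of 656 (rank 57581). In Scg5, chr2:113795276-113795704 had 522 (rank 65223) and chr2:113807375-113807901 had 639 (rank 58409). The other 6 had signals from 202 to 295 and lay in Fmn1, Scg5 and Gm21596. The 1 region in the E11.5 list only, chr2:113823998-113824215 in Scg5, had a signal of 225 (rank 35367 of 37548), near the lowest signal of its list (200).

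The other genes of the SHH, GREM1 and FGF loop were accessible at their promoters at least as often as genes in general. In the E10.5 list 36 of 36 of these genes had a promoter region, and in the E11.5 list 31 (86.1%), against 68.5% and 62.6% of protein-coding genes. Among the ligands, Shh itself had weak promoter regions (signals 649 and 228, E10.5 first), while Bmp2 had 10549 and 5468, Bmp4 4809 and 1099, and Bmp7 30526 and 4054. The ridge ligands Fgf4, Fgf8 and Fgf17 had a promoter region at E10.5 only, with signals of 316, 2637 and 2170, as did the ridge-inducing Wnt3 (3407) and the retinoic acid-degrading Cyp26b1 (325). Fgf9, also expressed in the ridge, was listed at both stages (7023 and 2385). Whether these 5 genes differ between stages was not tested.

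Receptors, transducers and targets of the loop were listed at both stages. The SHH receptor Ptch1 had 17809 and 9905, the mediator Gli3 15970 and 10604, and the pathway target Gli1 15788 and 4173. The BMP targets Msx1 and Msx2 had 16489 and 2317, and 4483 and 1008. Hand2, an activator of Shh, had 10154 and 4959, and Dusp6, an FGF feedback phosphatase, 22288 and 11348. The Grem1 promoter, with 8612 and 4790, is neither the strongest nor the weakest of them at either stage.

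Within 100 kb of its start site Grem1 had 14 regions at E10.5, of which 6 had a counterpart, and 7 at the later stage. The median of 21536 protein-coding genes was 10 (quartiles 5 and 17) and 5 (2 and 8). The listed loop genes had a median of 21.5 at E10.5, with a range from 4 to 52, and of 7.5 at E11.5, with a range from 1 to 23. Grem1 thus lay below the middle of the loop genes at both stages. Fmn1 had 20 and 13, of which 14 and 13 were shared, but over 2 start sites and so over a longer stretch. Over the whole lists 32.3% of E10.5 regions and 91.8% of E11.5 regions had a counterpart.

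**Figure D4:**
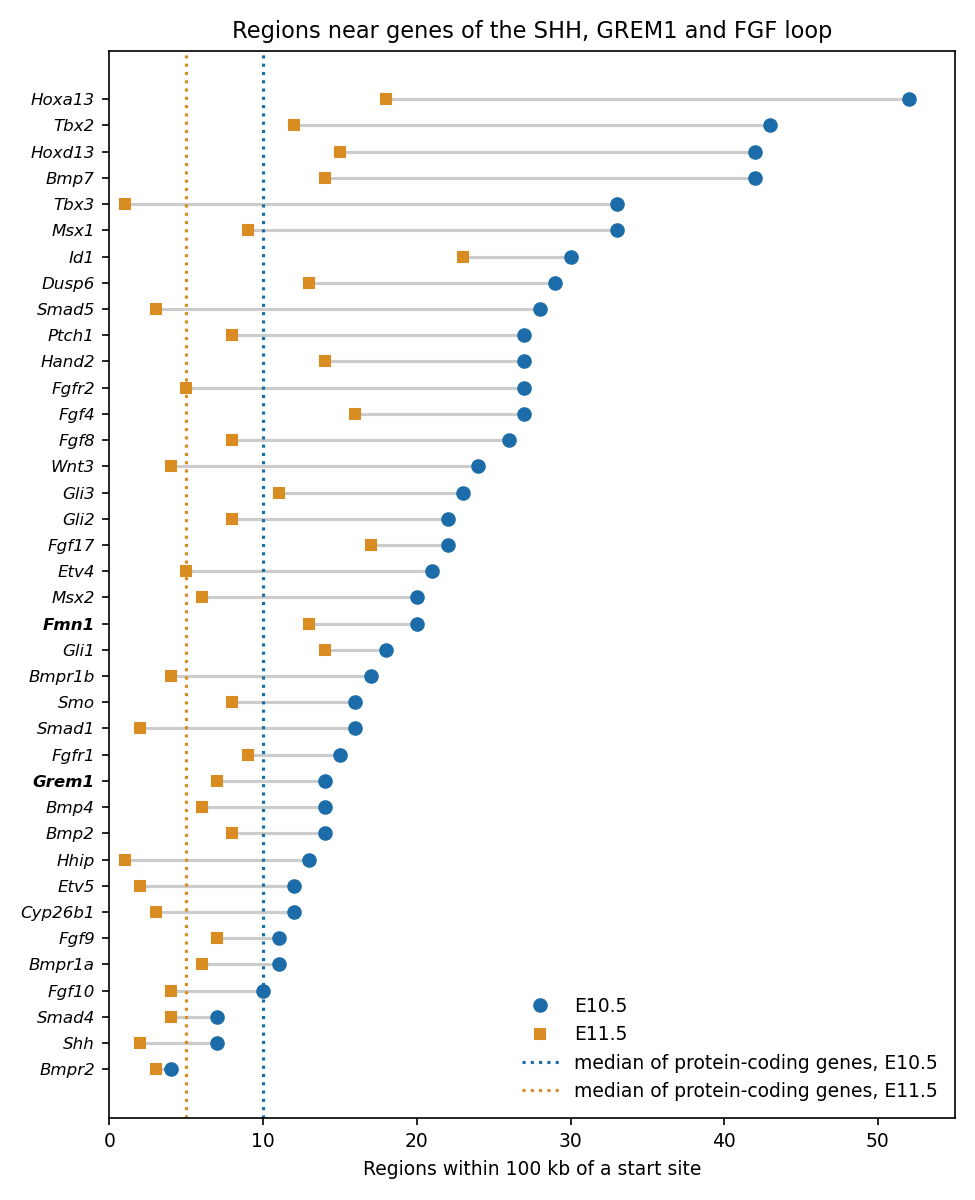
Number of accessible regions within 100 kb of a start site (horizontal axis) at E10.5 (circles) and E11.5 (squares) for Grem1, Fmn1 (bold) and 36 genes of the SHH, GREM1 and FGF loop, with dotted lines at the medians of protein-coding genes (10 and 5). Grem1 stands at 14 and 7 and Fmn1 at 20 and 13. The loop genes run from Bmpr2 with 4 to Hoxa13 with 52 at E10.5. At E11.5 they run from Hhip and Tbx3 with 1 to Id1 with 23.

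Of other BMP antagonists, all 16 had a promoter region in the E10.5 list and 14 in the E11.5 list, the exceptions being Cer1 (signal 767) and Sost (275). Nog (noggin) had signals of 9398 and 3763, Fst (follistatin) 4208 and 3173, and Bambi, a BMP pseudoreceptor, 9150 and 6957. In the formin family all 14 had a promoter region in the E10.5 list and 13 in the E11.5 list, the exception being Fmnl1 (1131). Over all protein-coding genes these shares were 68.5% and 62.6%. Fmn2, the closest relative of Fmn1, had 8124 and 6137.

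Markers of the cell types a limb bud can hold were checked at their promoters, in the order E10.5 and E11.5, beside 68.5% and 62.6% of all protein-coding genes. All 8 markers of limb mesenchyme had a region at both stages. Ectoderm markers had 7 and 5 of 8, with Trp63 in neither list. Blood markers had 3 and 5 of 6, with Ptprc in neither list. Hbb-bt and Gata1 were in the E11.5 list only, with signals of 239 and 278, near the lowest of that list (200). Endothelial markers had 2 and 1 of 4, with Pecam1 and Tek in neither. Muscle precursor markers had 5 and 2 of 5, and nerve markers 3 and 1 of 4. The part of these cell types in the Grem1 and Fmn1 regions was not tested.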

How the data were processed

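Chromatin accessibility was measured by ATAC-seq, in which the Tn5 transposase inserts adaptors into open DNA, in 4 samples, 2 per stage. The submitters' processing notes name cutadapt, Bowtie2, SAMtools, deepTools and Genrich, without versions, and the build mm10. The way replicates were joined, filters, and any shift of read ends for Tn5 are not given in the sources used here. The deposited lists give per region a signal value, a −log10 p-value and a score. In 100% of regions the score matched signal per bp times 1000, capped at 1000. The signal per bp was below the −log10 p in 100% of regions. A q-value column was not used.

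Regions on chromosomes 1 to 19, X and Y (99356 and 37413) entered shares, and ranks used whole lists. Start sites came from the RefSeq promoter table of GRCm38.p6 (17492 protein-coding genes) or, for 4044 genes without an entry there, from the gene's outer end, with the strand of GENCODE M1 matched by symbol or synonym. Overlap and distance code in Python 3.11.15 was tested on simulated lists. SciPy 1.17.1 gave the Wilson intervals at 95%. For a count of 0 the limit is 3 counts of the total. Coordinates are 1-based. The window, gene lists and alternatives were chosen with earlier results of these data known. Named were promoter regions, every E11.5 region with its partner, the 10 strongest E10.5 regions without overlap, and listed genes absent from a list, except a few that are not reported here. Further loop, antagonist and formin genes were named after their values were seen. Alternatives were a stricter −log10 p, other overlap and promoter definitions, an E10.5 list cut to the length of the E11.5 list, and other rankings.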

Additional observations from a re-analysis of the deposited data

How the results depend on the processing

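No paired analysis was possible because the replicates of a stage share 1 list, so none could be left out either. Depth is unknown and limits every number of regions. With −log10 p of at least 5 the window held 8 E11.5 regions, 30.8% of E10.5 regions and 100% of the E11.5 ones overlapped, and the list gave 32.4% and 94.2%. The cause was not tested. With the E10.5 list cut by signal to the length of the other, the window held 16 E10.5 regions, of which 100% overlapped (68.9% over the list), and 73.9% of E11.5 regions did, below the 75.3% of the list. Reduced by −log10 p, it held 20, of which 90% overlapped (70.2% over the list). With 50% reciprocal overlap the shares were 40.5% and 65.2%, and over the lists 20.3% and 53.8%. With summits within 100 bp the E11.5 share was 73.9%, against 70.6% over the list. From the Fmn1 start to the Grem1 start site 100% of E11.5 regions overlapped (20 of 20), against 91.8% over the list. The E10.5 share of the window thus exceeded that of the list in each of these settings except the stricter threshold. Grem1 and Fmn1 kept their promoter regions at both stages with promoters within 500 bp and at the stricter threshold. Start sites from the promoter table alone and the restriction to distal regions of Fmn1 were added after seeing the data. For the window and the promoters, 16 of 28 values kept to their criterion (the 95% interval of a share, or 1.5 times for a count), while 12 moved. The other values were shares of protein-coding genes and ranks of named regions by −log10 p or signal per bp. Of these, 7 kept to the 95% interval, which is narrow for long lists, and 107 moved. The ranks given for regions thus hold for the signal value only.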
